A study of Homo sapiens with 6 samples.

Results

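The genes described here are 37 ribosome biogenesis and nucleolar genes, taken by symbol from a table of 60606 genes. Each of the 37 had 1 row, and all 37 passed the filter of a mean of at least 1 TPM (transcript abundance per length, scaled to the same total of 1000000 in each library) over the 6 tumors, which left 14140 genes for the test. Their mean levels ran from 11.5 TPM for POLR1B to 1628 TPM for NPM1. The samples were 3 irradiated and 3 control xenograft tumors of MDA-MB-231, a human triple-negative breast cancer cell line, grown under the skin of the flank in NSG mice, which lack T cells, B cells and natural killer cells. The irradiated tumors received a single local dose of 10 Gy as 6 MV X-rays once they measured about 800 mm3, and were taken 3 days later, while the control tumors were not irradiated. The labels record no size or collection day for the controls. All 6 tumors came from unmodified cells of 1 line, and nothing states that each came from its own animal, so the p-values reflect the spread of the samples at hand, which may be partly technical.

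Ribosomes are assembled in the nucleolus. RNA polymerase I transcribes the rRNA precursor, box C/D and H/ACA small nucleolar ribonucleoproteins (snoRNPs) guide its ribose methylation and pseudouridylation, and many assembly factors cut, fold and export the large and small subunits. Output of this pathway rises with growth signalling and with MYC, and in cancer cells large nucleoli are a classical sign of rapid growth.

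Most of these genes were lower in irradiated tumors by small amounts, and 1, NPM1, passed the test. Their summed level was 3539, 4052 and 4250 TPM in irradiated tumors 1, 2 and 3, against 6175, 5138 and 5870 TPM in control tumors 1, 2 and 3. The groups of that sum did not overlap, and its mean in irradiated tumors was 68.9% of that in controls. Each log2 fold change is the irradiated mean less the control mean of log2(TPM + 1), which is too small for genes of low level. It was below 0 in 36 of the 37 genes, and of all 14140 tested genes 55.7% were below 0. The median over the 37 was -0.37, while the median over all tested genes was -0.056. With limma at an adjusted p of 0.05 over all tested genes, 1 of the 37 fell and 0 rose, and of all tested genes 2.98% were called, with 1.61% lower and 1.37% higher, so the share of called genes (2.70% of the 37) was near the background. At an unadjusted p under 0.05, 12 of the 37 were lower and 0 higher, against 11.5% and 8.93% of all tested genes. In 18 of the 37 (48.6%) all 3 irradiated values lay below all 3 control values, which held for 15.0% of all tested genes. No test was made over the list, because the genes were proposed with earlier results of these data known. In bulk tumors, fewer cells that express a gene and less of its RNA per cell cannot be told apart.

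**Figure D1:**
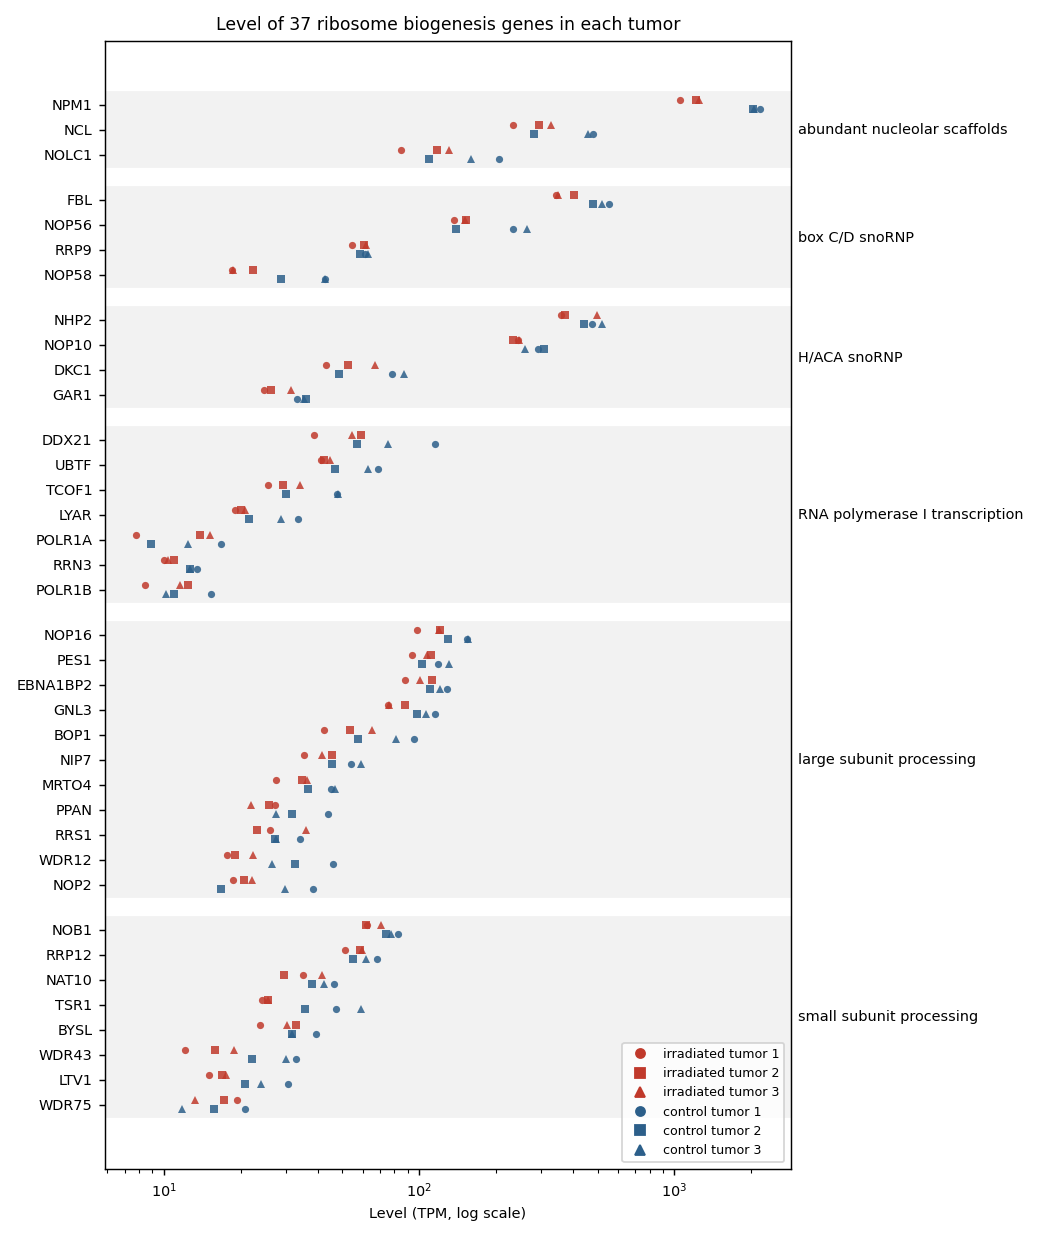
Level of each of the 37 genes (rows, grouped by role) in TPM on a log axis, with irradiated tumors in red above control tumors in blue and 1 symbol per tumor number. NPM1 sits at 1051 to 1248 TPM in irradiated tumors and at 2038 to 2159 TPM in controls, and control tumor 2 (blue squares) is the lowest control in 29 of the 37 rows.

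The 3 control tumors were not alike. Control tumor 2 was the lowest control in 29 of the 37 genes (78.4%), against 57.3% of all tested genes. In 19 of the 37 its value was at or below the highest irradiated one, which held for control tumor 1 in 3 genes and for control tumor 3 in 5. Cytosolic ribosomal protein genes, matched by symbol, took 27.0% of all TPM in control tumor 2 and 19.8% to 22.3% in the other 5 tumors. Mitochondrially encoded genes took 10.6% to 11.7% of all TPM in irradiated tumors and 7.58% to 10.5% in controls, without overlap, and the part of this in the levels of the 37 genes was not tested. Among the irradiated tumors, tumor 1 was the lowest in 31 of the 37 genes. The share over all tested genes was not counted for this order, nor for controls at or below the highest irradiated value. Neither is therefore read as particular to the 37. Without control tumor 2, limma called 7 of the 37 lower (NPM1, NOP58, TSR1, NOP56, UBTF, WDR43 and FBL, adjusted p from 0.0183 to 0.0498), and 3.95% of all tested genes were then called lower. With that tumor left out, the irradiated values lay below the remaining controls in 30 of the 37, compared with 31.4% of all tested genes. Without irradiated tumor 1, or without control tumor 1, limma called 0 of the 37, and at most 1 when any other single tumor was left out. The 12 proliferation markers, from MKI67 to TYMS, followed a similar order of tumors, with sums of 729, 786 and 787 TPM in irradiated tumors 1, 2 and 3 and 1250, 782 and 1179 TPM in control tumors 1, 2 and 3. None of these markers passed the limma test, although 5 were lower at an unadjusted p under 0.05. MKI67, a protein of cycling cells, was at 13.4, 18.2 and 19.4 TPM in irradiated tumors 1, 2 and 3 and at 47.6, 19.0 and 39.8 TPM in control tumors 1, 2 and 3. Its log2 fold change was -0.94 (limma adjusted p = 0.154). When single tumors were left out, its limma adjusted p ran from 0.0214, without control tumor 2, to 0.376. The part that cell division plays in the levels of the 37 genes was not tested.

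Levels of markers of other cells are those of human genes, while the host of these tumors was the mouse. Mouse cells can enter these values only through mouse reads assigned to human genes. Whether mouse reads were taken out is not stated. The sums below therefore do not measure host cells, and a level of 0 does not show that such cells were absent. The 14 skeletal muscle markers summed to 2.43, 142.6 and 2.83 TPM in irradiated tumors 1, 2 and 3. In control tumors 1, 2 and 3 they summed to 201.8, 270.5 and 549.3 TPM. Of these, 12 passed the filter and 3 fell, against 1.61% of all tested genes. All 12 were lower without overlap, against 15.0% of all tested genes. All 12 were also lower at an unadjusted limma p under 0.05, against 11.5%. The 11 fibroblast markers, of which 8 passed and 3 fell, summed to 137 to 222 TPM in irradiated tumors and 486 to 1028 TPM in controls. Of these 8, 6 were lower without overlap. At an unadjusted limma p under 0.05, 6 were lower and 1 higher. The 10 macrophage and neutrophil markers summed to 108 to 208 TPM in irradiated tumors and 90.5 to 109 TPM in controls, with S100A8 and S100A9 at 0 in all 6 tumors. Of these 10, 4 passed the filter, 2 with fold changes above 0 and 2 below, and 0 passed limma (2 higher and 0 lower at an unadjusted p under 0.05). CD68 made up most of the sum, at 91.2 to 187 TPM in irradiated tumors and 74.9 to 94.2 TPM in controls. PTPRC, CD14, MRC1 and ITGAM reached no more than 0.73 TPM in any tumor. The sum is therefore mainly the level of 1 gene and is not read as a content of these cells. The 7 endothelial markers summed to at most 9.30 TPM and the 5 adipocyte markers to at most 3.74 TPM in any tumor, with ADIPOQ and LEP at 0 throughout. The part of these cells in the levels below was not tested. All 9 markers of the labelled cell line were present, with sums of 5034 to 5858 TPM in irradiated tumors and 5698 to 7253 TPM in controls. Of these 9, 6 had fold changes below 0 and 0 passed limma, with 3 lower and 0 higher at an unadjusted p under 0.05. The largest share was vimentin (VIM), at 3148 to 3685 TPM in irradiated tumors and 3797 to 5283 TPM in controls. The 7 breast epithelial markers listed as low or absent in this line summed to 9.12 to 14.1 TPM in irradiated tumors and 8.29 to 13.8 TPM in controls. Of these, ESR1 and PGR reached no more than 0.32 TPM, while EPCAM, GATA3 and FOXA1 were present in all 6 tumors at 1.59 to 5.10 TPM.

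Among the abundant nucleolar scaffolds, NPM1 fell. Nucleophosmin (NPM1, ENSG00000181163) is a chaperone of ribosome assembly and export that helps to form the outer layer of the nucleolus, and its gene lies on the plus strand at chr5:171387116-171411137 (GRCh38). Its level was 1051, 1212 and 1248 TPM in irradiated tumors 1, 2 and 3, against 2159, 2038 and 2058 TPM in control tumors 1, 2 and 3. Every irradiated tumor lay far below every control, and control tumor 2 did not stand apart. The means were 1170 ± 105 TPM in irradiated tumors and 2085 ± 65.1 TPM in controls (SD, n = 3 each), or 56.1% of the control mean. In the limma fit this was a log2 fold change of -0.84 (standard error 0.118, 95% interval -1.11 to -0.57, adjusted p = 0.0124). The limma call was lost when irradiated tumor 1 (adjusted p = 0.0634), control tumor 1 (0.0622) or both tumors numbered 2 (0.0510) were left out and when low genes were kept (0.0728), and over all alternatives the adjusted p ran from 0.00642 to 0.0728. NPM1 has 49 pseudogenes with its name in the table, between which reads can be split. These summed to 10.1, 9.58 and 6.19 TPM in irradiated tumors 1, 2 and 3 and 31.1, 32.4 and 44.5 TPM in control tumors 1, 2 and 3, lower in each irradiated tumor like the gene itself. With them added, the log2 fold change of NPM1 became -0.85 (limma adjusted p = 0.0112). In the other 9 genes with named pseudogenes, these held at most 2.12 TPM in any tumor, in RRN3.

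The other scaffolds did not pass. Nucleolin (NCL), which binds the rRNA precursor and rDNA chromatin, was at 233, 295 and 329 TPM in irradiated tumors 1, 2 and 3 and at 482, 282 and 458 TPM in control tumors 1, 2 and 3. NOLC1, a chaperone of both snoRNP classes, was at 84.8, 118 and 131 TPM in irradiated tumors 1, 2 and 3 and at 206, 110 and 160 TPM in control tumors 1, 2 and 3. In both genes control tumor 2 lay among the irradiated tumors. Their log2 fold changes were -0.49 (95% interval -1.005 to 0.033) for NCL and -0.48 (-1.06 to 0.091) for NOLC1, with limma adjusted p of 0.270 and 0.315. NPM1 made up a mean of 29.7% of the summed level of the 37 genes in irradiated tumors and 36.6% in controls. The 36 genes other than NPM1 summed to 2488, 2840 and 3002 TPM in irradiated tumors 1, 2 and 3, against 4015, 3100 and 3812 TPM in control tumors 1, 2 and 3, so the groups still did not overlap, by a narrow gap at control tumor 2.

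Promoter windows from RefSeq (GRCh38.p14), from 250 bases before to 50 after the annotated start, were matched for 31 of the 37 genes. NOP58, NOLC1, BOP1, RRP12, RRS1 and TCOF1 were not matched. The E-box CACGTG, which reads the same on both strands and is bound by MYC with MAX among other factors, was searched first because ribosome biogenesis genes are classical MYC targets. It occurred in 11 of the 31 windows (35.5%), against 25.6% of the windows of 125 other ribosome assembly genes, 10.3% of the windows of 10073 tested genes and 7.26% of all 35116 windows. In 4 genes (NOP10, RRP9, EBNA1BP2 and NAT10) it began before the start, and in 7 (FBL, NOP2, PES1, WDR43, MRTO4, BYSL and LTV1) at positions 4 to 36 after it, counted from 1 at the start. The median log2 fold change was -0.26 in the 11 genes with it and -0.39 in the 20 without it. Over tested genes with a window the order was the other way, at -0.093 with it and -0.049 without it. Neither difference was tested. Searched after the sequences were seen, CCGGAAG, of the kind ETS factors bind, on either strand (reverse complement CTTCCGG) was in 11 of the 31 (35.5%), against 41.6% of the other assembly genes, 19.9% of tested genes and 10.3% of all windows. TATATAA, a form of the TATA box, was likewise not planned and was searched on either strand. It was in 3 of the 31 (9.68%, NPM1, POLR1A and WDR75), against 0 of the 125 other assembly genes, 1.19% of tested genes and 2.57% of all windows. It began 25 bases before the start in NPM1, 125 before it in POLR1A (as the reverse complement) and 222 before it in WDR75. These shares count a match anywhere in the window, so they are not shares of TATA boxes. The share in the 31 includes NPM1, the called gene, and is not read as a result about the 37. No window had different motifs overlapping each other, and in NOP16 the forward and reverse CCGGAAG overlap. A match describes these letters and is not evidence of binding. The 200 bases before the start are shown for the gene that fell and for 3 genes that show the other motifs, each read 5′ to 3′ on its gene's strand with the named motif in capitals: TATATAA in NPM1 (chr5:171387649-171387848, plus strand), CACGTG in NOP10 (chr15:34343137-34343336, minus) and NAT10 (chr11:34105429-34105628, plus), and CCGGAAG in TSR1 (chr17:2336458-2336657, minus).
NPM1: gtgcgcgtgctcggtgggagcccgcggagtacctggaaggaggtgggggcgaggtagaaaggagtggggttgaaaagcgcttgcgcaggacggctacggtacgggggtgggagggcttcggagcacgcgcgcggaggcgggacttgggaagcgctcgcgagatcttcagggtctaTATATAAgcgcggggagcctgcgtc
NOP10: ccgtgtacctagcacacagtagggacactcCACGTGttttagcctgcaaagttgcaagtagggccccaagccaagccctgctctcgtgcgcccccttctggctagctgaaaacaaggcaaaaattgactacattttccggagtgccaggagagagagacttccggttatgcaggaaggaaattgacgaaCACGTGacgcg
NAT10: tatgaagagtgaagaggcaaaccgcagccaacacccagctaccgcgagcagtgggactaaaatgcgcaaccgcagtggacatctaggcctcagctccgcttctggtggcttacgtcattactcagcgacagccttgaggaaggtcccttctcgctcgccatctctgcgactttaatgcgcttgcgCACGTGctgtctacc
TSR1: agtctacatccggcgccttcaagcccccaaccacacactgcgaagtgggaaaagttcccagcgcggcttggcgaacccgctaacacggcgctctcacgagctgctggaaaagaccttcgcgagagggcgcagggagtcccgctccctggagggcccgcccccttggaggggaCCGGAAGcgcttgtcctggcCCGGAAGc
NPM1 held its motif 25 bases before the start, NOP10 held CACGTG 170 and 11 bases before it, NAT10 15 bases before it, and TSR1 held CCGGAAG 28 and 8 bases before it. NPM1, which fell, had neither CACGTG nor CCGGAAG in its window. The stretches shown for NPM1 and TSR1 lie within the bounds that GENCODE gives these genes. Those for NOP10 and NAT10 lie partly within them, with the CACGTG 11 bases before the start in NOP10 and 15 in NAT10 inside. The positions of the motifs shown therefore depend on which annotated start is used.

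Of the box C/D snoRNP proteins, the methyltransferase and 1 scaffold were lower without overlap, though none passed the test. FBL, NOP56 and NOP58 belong to the core of the particles that methylate rRNA, while RRP9 belongs to a box C/D particle that acts in cleavage. Fibrillarin (FBL), the methyltransferase, was at 344, 405 and 351 TPM in irradiated tumors 1, 2 and 3, against 556, 478 and 519 TPM in control tumors 1, 2 and 3. All irradiated values were below all control values, with a log2 fold change of -0.50 (95% interval -0.78 to -0.21) and a limma adjusted p of 0.0765. NOP58, a scaffold that holds the guide RNA, had the lowest fold change of the 37. It was at 18.5, 22.4 and 18.6 TPM in irradiated tumors 1, 2 and 3, against 42.6, 28.6 and 42.7 TPM in control tumors 1, 2 and 3, again with no overlap. The limma fit put its log2 fold change at -0.89 (95% interval -1.33 to -0.44, adjusted p = 0.0534), just outside the threshold. Over all alternatives run, its limma adjusted p ran from 0.0180 to 0.178. Its paralogous partner NOP56 was at 137, 153 and 152 TPM in irradiated tumors 1, 2 and 3 and at 233, 140 and 264 TPM in control tumors 1, 2 and 3. Here control tumor 2 was level with the irradiated tumors, and the log2 fold change was -0.47 (-0.99 to 0.045, adjusted p = 0.281). RRP9, which binds the snoRNA used in early cleavage of the precursor, was at 54.4 to 61.7 TPM in irradiated tumors and at 58.4 to 62.8 TPM in controls. Its log2 fold change of -0.046 (-0.34 to 0.25) turned to 0.012 with medians of ratios and 0.020 with quantile normalization, and to 0.0096 without irradiated tumor 1. The 4 genes summed to 554, 642 and 583 TPM in irradiated tumors 1, 2 and 3 and 893, 705 and 888 TPM in control tumors 1, 2 and 3.

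The H/ACA snoRNP core proteins had log2 fold changes between -0.37 and -0.24, and 0 of the 4 passed the test. DKC1, the pseudouridine synthase whose mutation causes dyskeratosis congenita, was at 43.1, 52.4 and 67.2 TPM in irradiated tumors 1, 2 and 3 and at 78.2, 48.3 and 87.5 TPM in control tumors 1, 2 and 3. It had the lowest fold change of the class (-0.37, 95% interval -0.94 to 0.21, limma adjusted p = 0.446), with control tumor 2 below irradiated tumors 2 and 3. NHP2, an RNA-binding partner of DKC1 and the most abundant of the class, was at 360, 374 and 498 TPM in irradiated tumors 1, 2 and 3 and at 478, 442 and 523 TPM in control tumors 1, 2 and 3. Irradiated tumor 3 lay among the controls, and the log2 fold change was -0.24 (-0.59 to 0.12, adjusted p = 0.420). The groups did not overlap for NOP10, the smallest of the core proteins, at 233 to 246 TPM in irradiated tumors and 260 to 308 TPM in controls, nor for GAR1, at 24.6 to 31.4 TPM in irradiated tumors and 33.1 to 35.9 TPM in controls. Their limma adjusted p-values were 0.284 and 0.250. The difference between the H/ACA and box C/D classes was not tested.

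Genes of RNA polymerase I transcription had log2 fold changes between -0.66 and -0.058, with 0 of 7 called. DDX21, an RNA helicase that acts at rDNA and on the precursor, was both the most abundant and the one with the lowest fold change. It was at 38.6, 59.3 and 54.5 TPM in irradiated tumors 1, 2 and 3, against 115, 57.1 and 75.7 TPM in control tumors 1, 2 and 3. Control tumor 2 lay between irradiated values, with a log2 fold change of -0.66 (95% interval -1.27 to -0.042) and a limma adjusted p of 0.216. UBTF, which binds and opens rDNA, was at 41.3 to 44.8 TPM in irradiated tumors and 46.6 to 69.1 TPM in controls, and LYAR, a nucleolar zinc finger protein, at 19.0 to 20.7 TPM in irradiated tumors and 21.6 to 33.6 TPM in controls. Neither overlapped, and the log2 fold change was -0.45 in both (limma adjusted p = 0.187 for UBTF and 0.222 for LYAR). RRN3, the initiation factor that brings the polymerase to the promoter, did not overlap either, at 10.0 to 10.9 TPM in irradiated tumors and 12.6 to 13.5 TPM in controls (-0.29, adjusted p = 0.333). TCOF1 (treacle), which links rDNA transcription to processing, had a log2 fold change of -0.46 (adjusted p = 0.267) with control tumor 2 inside the irradiated range.

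The catalytic core of the polymerase had fold changes near 0 with wide intervals. POLR1A, the largest subunit, was at 7.79, 13.8 and 15.1 TPM in irradiated tumors 1, 2 and 3 and at 16.7, 8.92 and 12.5 TPM in control tumors 1, 2 and 3. POLR1B, the next subunit in size, was at 8.44, 12.4 and 11.6 TPM in irradiated tumors 1, 2 and 3 and at 15.3, 10.9 and 10.2 TPM in control tumors 1, 2 and 3. The groups interleaved in both genes. The log2 fold changes were -0.058 (95% interval -0.73 to 0.62) for POLR1A and -0.15 (-0.65 to 0.35) for POLR1B. The first was 0.0030 with quantile normalization, and both turned without irradiated tumor 1 or control tumor 1, to 0.21 and 0.15 for POLR1A and to 0.0019 and 0.016 for POLR1B.

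In the large subunit group, all 11 genes had fold changes below 0 (55.7% of all tested genes), 0 passed the test and 6 were lower without overlap (15.0% of all tested genes). WDR12, which forms a complex with BOP1 and PES1 that is needed to process the large-subunit rRNA, stood lowest. It was at 17.6, 18.9 and 22.3 TPM in irradiated tumors 1, 2 and 3, against 46.1, 32.5 and 26.4 TPM in control tumors 1, 2 and 3, without overlap (log2 fold change -0.78, 95% interval -1.27 to -0.28, limma adjusted p = 0.0978). Its partners had fold changes nearer to 0, and both overlapped. BOP1 was at 42.3, 53.7 and 65.5 TPM in irradiated tumors 1, 2 and 3 and at 95.04, 57.5 and 81.0 TPM in control tumors 1, 2 and 3 (-0.52, adjusted p = 0.246), and PES1 was at 93.8 to 111 TPM in irradiated tumors and 102 to 131 TPM in controls (-0.17, adjusted p = 0.544). NOP16, a nucleolar protein and the most abundant of the group, was at 98.2, 121 and 120 TPM in irradiated tumors 1, 2 and 3, against 154, 130 and 155 TPM in control tumors 1, 2 and 3. It did not overlap (log2 fold change -0.37, 95% interval -0.70 to -0.048, limma adjusted p = 0.187).

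Of the remaining large subunit genes, 4 did not overlap and 3 did. The GTPase nucleostemin (GNL3) was at 75.8 to 87.9 TPM in irradiated tumors and 98.2 to 115 TPM in controls, without overlap, with a log2 fold change of -0.41 (95% interval -0.72 to -0.11, limma adjusted p = 0.133). The assembly factors MRTO4 (-0.37), NIP7 (-0.37) and PPAN (-0.42) also did not overlap, with limma adjusted p from 0.247 to 0.278. Their groups nearly touched. The highest irradiated and the lowest control values were 36.24 and 36.73 TPM for MRTO4 and 45.37 and 45.55 TPM for NIP7. For PPAN they were 27.27 and 27.39 TPM. PPAN shares exons with the read-through gene PPAN-P2RY11, whose level was 8.69 to 13.0 TPM in irradiated tumors and 6.56 to 8.66 TPM in controls, and the sum of the pair had a log2 fold change of -0.21 (limma adjusted p = 0.538). NOP2, an rRNA cytosine methyltransferase, was at 18.6, 20.6 and 22.1 TPM in irradiated tumors 1, 2 and 3 and at 38.3, 16.7 and 29.7 TPM in control tumors 1, 2 and 3. Control tumor 2 was the lowest of the 6, which occurred in no other of the 37 genes. EBNA1BP2 had a log2 fold change of -0.26 (adjusted p = 0.339), and RRS1, needed for large subunit assembly, one of -0.070 (95% interval -0.52 to 0.38, adjusted p = 0.876). RRS1 turned to 0.060 without irradiated tumor 2 and to 0.035 without control tumor 1. NOP2, RRS1 and LTV1 overlap, in exons on the same strand, genes known by clone names, so their values are less certain.

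**Figure D2:**
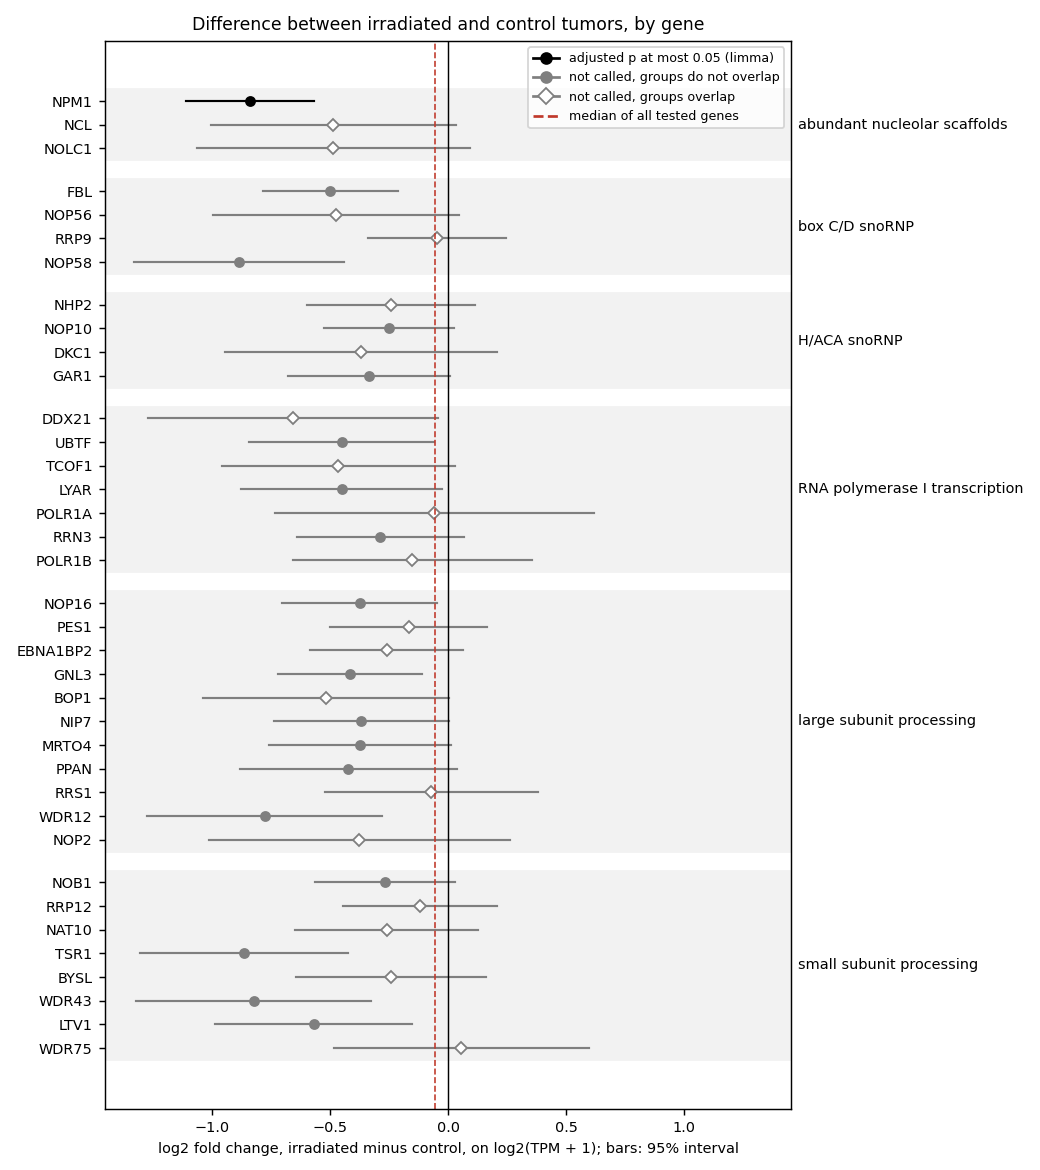
Log2 fold change of each gene (irradiated minus control on log2(TPM + 1), points) with its 95% interval (bars), grouped by role and ordered by mean level within each role. NPM1 (black) is the gene called by limma, filled grey circles are genes whose groups do not overlap, open diamonds are genes whose groups overlap, and the red dashed line is the median of all tested genes at -0.056.

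Genes of small subunit processing held the widest range, from TSR1 at -0.86 to WDR75 at 0.056, with 0 of 8 called. TSR1, a GTPase-like factor that binds the late small subunit in the cytoplasm, was at 24.1, 25.5 and 25.5 TPM in irradiated tumors 1, 2 and 3, against 47.1, 35.8 and 59.0 TPM in control tumors 1, 2 and 3. The irradiated tumors were nearly equal and all below the controls. The 95% interval of its log2 fold change was -1.30 to -0.42 and its limma adjusted p was 0.0544, just outside the threshold. Over all alternatives run, that adjusted p ran from 0.0136 to 0.175. NOB1, the nuclease that makes the last cut of the small-subunit rRNA and the most abundant of the group, was at 62.3, 61.9 and 70.5 TPM in irradiated tumors 1, 2 and 3, against 82.6, 74.2 and 77.8 TPM in control tumors 1, 2 and 3. It did not overlap, with a log2 fold change of -0.27 (95% interval -0.56 to 0.029, limma adjusted p = 0.285). LTV1, which works at the same late stage, was at 15.01 to 17.5 TPM in irradiated tumors and 20.7 to 30.7 TPM in controls, without overlap (-0.57, 95% interval -0.98 to -0.15, adjusted p = 0.131).

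WDR43 and WDR75 belong to the same early complex, which binds the precursor as it is transcribed, and their values differed. WDR43 was at 12.1, 15.9 and 18.9 TPM in irradiated tumors 1, 2 and 3, against 32.7, 22.2 and 30.03 TPM in control tumors 1, 2 and 3, without overlap (log2 fold change -0.82, 95% interval -1.32 to -0.33, limma adjusted p = 0.0843). WDR75 was at 19.3, 17.1 and 13.3 TPM in irradiated tumors 1, 2 and 3 and at 20.8, 15.7 and 11.8 TPM in control tumors 1, 2 and 3. Its groups interleaved, with a log2 fold change of 0.056 (-0.48 to 0.59, adjusted p = 0.921) over all tumors, -0.056 without irradiated tumor 1 and -0.14 without control tumor 3. The difference between these genes was not tested. The rRNA acetyltransferase NAT10 (-0.26), the assembly factor BYSL (-0.24) and the export factor RRP12 (-0.12) overlapped, with limma adjusted p of 0.424, 0.472 and 0.668.

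**Figure D3:**
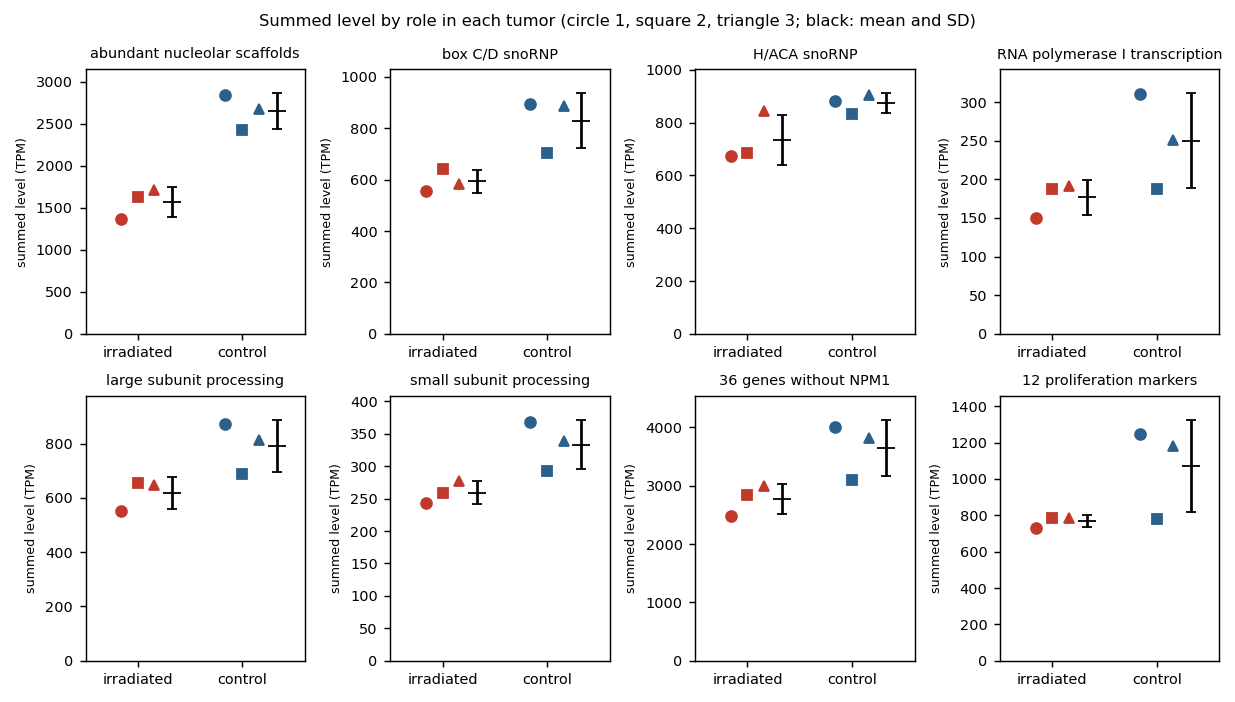
Summed level in TPM per tumor for each role, for the 36 genes without NPM1 and for 12 proliferation markers, with irradiated tumors (red) left of control tumors (blue), 1 symbol per tumor number, and the mean and SD of each group in black. The scaffolds lie between 1368 and 1708 TPM in irradiated tumors and between 2430 and 2847 TPM in controls, while the H/ACA and polymerase I groups overlap at control tumor 2.

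By role, the summed means in irradiated tumors were 59.1% of the control means for the scaffolds, 70.7% for polymerase I transcription, 71.5% for box C/D, 77.8% for the small subunit, 78.1% for the large subunit and 83.9% for H/ACA. The sums overlapped in H/ACA, at 842 TPM in irradiated tumor 3 and 834 TPM in control tumor 2, and in polymerase I transcription, at 191 TPM in irradiated tumor 3 and 188 TPM in control tumor 2. In the other 4 roles they did not overlap. The median log2 fold changes of the roles ran from -0.26 for the small subunit to -0.49 for box C/D and the scaffolds. Over the 37 genes, the median coefficient of variation within a group was 12.2% in irradiated tumors and 19.4% in controls, against 15.5% in irradiated tumors and 21.6% in controls over all tested genes.

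A feature shared by several of these genes is that snoRNA genes lie within them. Where snoRNA genes lie in introns, 1 transcript can yield both the protein and guide RNAs, but placement in introns was not checked here. In GENCODE release 29, 8 of the 37 (21.6%) had snoRNA or related genes within their bounds on the same strand, 27 in all, against 1.82% of 12014 tested protein-coding genes. They were GNL3 with 6, NOP56 with 5, NOP58 with 4, NCL and WDR43 with 3 each, and DKC1, PPAN and TSR1 with 2 each. The 8 had log2 fold changes between -0.89 and -0.37 with a median of -0.48, and the 29 without had a median of -0.34. Over all tested protein-coding genes, the medians were -0.17 for the 219 with such genes and -0.052 for the 11795 without. The difference was not tested.

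In 144 other genes of ribosome assembly, listed by role, 8 fell and 0 rose (5.56% lower, against 1.61% of all tested genes). Their median log2 fold change was -0.23, with 123 of 144 below 0, and in 49 (34.0%) irradiated values lay below all control values, against 15.0% of all tested genes. In the small subunit list 2 of 47 fell. NOL7, a nucleolar component of the small subunit processome, was at 57.1, 60.3 and 60.6 TPM in irradiated tumors 1, 2 and 3, against 174, 154 and 167 TPM in control tumors 1, 2 and 3. The groups were far apart, the log2 fold change was -1.46 (standard error 0.121, limma adjusted p = 0.00073), and the call was kept under every alternative run, with an adjusted p of at most 0.0125. TSR2, an escort of a small-subunit ribosomal protein, was at 10.5, 10.2 and 11.3 TPM in irradiated tumors 1, 2 and 3, against 18.8, 21.9 and 21.0 TPM in control tumors 1, 2 and 3 (log2 fold change -0.89, limma adjusted p = 0.0253). In the large subunit list 3 of 51 fell, namely RPF2, which acts together with RRS1, and RPF1 and RSL1D1, both nucleolar proteins of large subunit assembly. RPF2 was at 5.57, 6.09 and 5.37 TPM in irradiated tumors 1, 2 and 3, against 11.5, 17.3 and 10.9 TPM in control tumors 1, 2 and 3 (-1.07, adjusted p = 0.0387). RPF1 was at 51.0, 57.8 and 48.8 TPM in irradiated tumors 1, 2 and 3, against 79.7, 82.7 and 86.0 TPM in control tumors 1, 2 and 3 (-0.65, adjusted p = 0.0409). RSL1D1 was at 62.7, 71.5 and 69.3 TPM in irradiated tumors 1, 2 and 3, against 109.6, 107.7 and 95.1 TPM in control tumors 1, 2 and 3 (-0.61, adjusted p = 0.0485). The groups did not overlap in any of these 3 genes.

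The RNA exosome, which trims rRNA ends and degrades spacers, had 2 of 14 genes that fell, against 1.61% of all tested genes, and 9 of 14 that were lower without overlap, against 15.0%, and its list median was -0.47. C1D, an exosome cofactor, was at 9.74, 8.17 and 9.37 TPM in irradiated tumors 1, 2 and 3, against 23.7, 29.0 and 20.6 TPM in control tumors 1, 2 and 3 (log2 fold change -1.32, limma adjusted p = 0.0104). That call was kept when any single tumor was left out (adjusted p up to 0.0449) and lost when both tumors numbered 2 were (0.0613). EXOSC6, a subunit of its ring, was at 4.5, 4.99 and 3.75 TPM in irradiated tumors 1, 2 and 3, against 12.4, 9.27 and 13.1 TPM in control tumors 1, 2 and 3 (-1.21, adjusted p = 0.0233). Of 12 further genes of RNA polymerase I, 1 fell, TAF1D, a subunit of the promoter selectivity factor, at 36.3, 42.4 and 38.0 TPM in irradiated tumors 1, 2 and 3, against 59.2, 80.7 and 63.6 TPM in control tumors 1, 2 and 3 (-0.78, adjusted p = 0.0433). The lists of snoRNP assembly (10 genes) and of RNase MRP and P proteins (10 genes) had 0 calls in limma, with 0 and 1 genes lower and 0 and 1 higher at an unadjusted p under 0.05, and medians of -0.080 and -0.13. RPF1, RPF2, TSR2, EXOSC6 and TAF1D lost their limma calls when any single tumor other than control tumor 2 was left out, and RSL1D1 when any single tumor was (adjusted p up to 0.184). With medians of ratios RPF1, RPF2, TAF1D and RSL1D1 lost them too (0.0636 to 0.0896), and with low genes kept in the test only NOL7 and C1D of the 8 were called. C1D and RPF2 have pseudogenes in the table, 5 and 2, between which reads can be split.

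**Figure D4:**
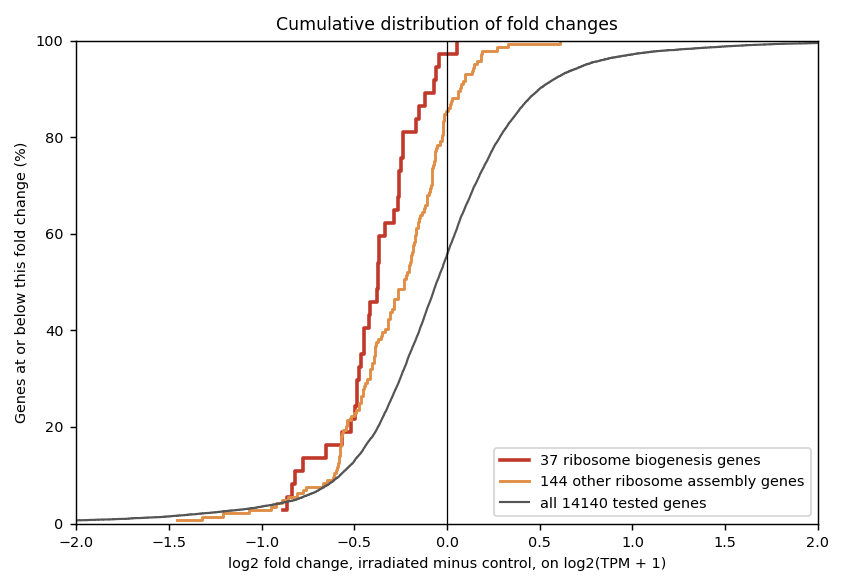
Cumulative share of genes (vertical axis, percent) at or below each log2 fold change (horizontal axis, irradiated minus control on log2(TPM + 1), shown from -2 to 2) for the 37 genes, the 144 other ribosome assembly genes and all 14140 tested genes. The curve of the 37 genes crosses 0 at 97.3% and that of all tested genes at 55.7%.

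MYC, a driver of ribosome biogenesis genes, was at 114, 126 and 143 TPM in irradiated tumors 1, 2 and 3 and at 200, 115 and 140 TPM in control tumors 1, 2 and 3. The groups overlapped, with a log2 fold change of -0.22 (95% interval -0.69 to 0.26) and a limma adjusted p of 0.589. When single tumors were left out, the log2 fold change ran from -0.40 to 0.0022, the latter without control tumor 1. Of 9 genes of the MYC and MAX network, 0 passed limma, and at an unadjusted p under 0.05 MXI1 was lower (-0.50, adjusted p = 0.125) and MXD4 was higher (0.59, adjusted p = 0.194). Both proteins compete with MYC for MAX.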

How the data were processed

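The authors deposited 1 table of TPM with 1 column per tumor, written to 2 decimals. Per the labels' protocols, an Illumina TruSeq RNA kit was used on total RNA. HISAT2, StringTie, RSEM and hg38 are named per the submitters' processing notes, without versions. The sources used here do not say which annotation release was used, whether strand was used, or whether mouse reads were taken out. TPM are shares of each library and keep no depth, so the reads behind a value are unknown and no counting interval is given. Column sums fell short of 1000000 by 0.523% to 0.774% in irradiated tumors and by 0.143% to 0.198% in controls.

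limma 3.58.1 in R 4.3.3 (lmFit, then eBayes with trend) was run on log2(TPM + 1) for the 14140 genes that averaged 1 TPM or more, two-sided, with Benjamini-Hochberg adjustment over all of them at 0.05. Group was the sole term. The fit was also run on simulated data, with values drawn independently for each tumor and changes larger than that of any of the 37 genes. That run therefore cannot tell how often changes of the size reported here are found. The 37 genes and all lists were chosen with earlier results of these data known. All 37 are accounted for. Given in full by rule are each called gene and, in each role, the most abundant gene and that with the largest fold change; of the other assembly lists each called gene; and MYC and MKI67 whatever their test. Other genes given with values in every tumor were chosen after their values were seen. Positions, overlaps and snoRNA genes came from GENCODE 29, in which 58396 of the 60606 identifiers were found, and promoters from RefSeq (GRCh38.p14). In 29 of the 31 windows the last bases lay in a GENCODE transcript of the gene. All 6 columns were used, and no pair of tumors held identical values throughout.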

Additional observations from a re-analysis of the deposited data

How the results depend on the processing

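The number of the 37 genes that fell, 1 as reported, was 0 without a filter on low values, 2 with correction for transcript length and GC content, 3 with a minimum mean of 5 TPM, with medians of ratios, with quantile normalization, without mitochondrial and ribosomal protein genes, and with robust estimates, and 5 with sample weights. It ranged from 0 to 7 when each tumor was left out in turn, and the number that rose was 0 under every alternative run. With both tumors numbered 2 left out it was 1, and that gene was NOP58 instead of NPM1. All tested genes called, 421 as reported, numbered 133 without a filter, 279 without trend, 1064 with sample weights and 186 with both tumors numbered 2 left out, and ranged from 127 to 791 without single tumors. Of the 144 other assembly genes, 8 as reported, 2 were called without a filter, 5 with medians of ratios, 4 without trend, 15 with sample weights (14 of them lower), 4 with length and GC correction and 1 without both tumors 2, with a range of 2 to 12 without single tumors. The median log2 fold change of the 37 ran from -0.47 to -0.28 without single tumors and was -0.54 without both tumors 2. With medians of ratios it was -0.32, while the median of all tested genes moved to -0.0033. The length and GC correction and the omission of both tumors 2 were chosen after seeing the data. The causes of these changes were not tested, except that fewer tumors enter each omission.

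Directions turned in genes near 0. RRP9 was 0.012 with medians of ratios and 0.020 with quantile normalization, POLR1A was 0.0030 with quantile normalization and 0.019 with length and GC correction, and RRS1 was 0.0035 without both tumors 2. Without single tumors the ranges were -0.080 to 0.0096 for RRP9, -0.27 to 0.21 for POLR1A, -0.26 to 0.016 for POLR1B, -0.25 to 0.060 for RRS1, -0.14 to 0.25 for WDR75 and -0.40 to 0.0022 for MYC. Same-numbered tumors did not deviate together (correlations -0.043, -0.046 and -0.059 for numbers 1, 2 and 3), and none correlated best with its own number, so the numbers are not taken as pairs. With a replicate block, 185 genes were called in all, 1 of the 37 (NPM1, limma adjusted p = 0.0460) and 2 of the 144. Depth is unknown, and 3 tumors per group limit what could be called.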
